A study of Mus musculus with 4 samples.

Results

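The cells described here are those of mouse dorsal skin and cheek that met a rule for Schwann cells. They were chosen by the genes *Ncmap*, *Drp2*, *Kcna1* and *Scn7a* in Xenium data, a method that locates single RNA molecules in tissue with probes, here for 328 genes. A cell was a member if it held at least 10 transcripts and if its transcripts of these 4 rule genes summed to at least 4 at a quality score of at least 20. The rule found 2950 Schwann-rule cells among 426792 cells with at least 10 transcripts. Of the members, 788 held exactly 4 rule-gene transcripts, just inside the threshold, and 1374 further cells held exactly 3. The median member held 6 rule-gene transcripts and the highest 43.

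Schwann cells are the glia of peripheral nerves. Myelinating Schwann cells wrap single large axons in lipid-rich membrane, while non-myelinating (Remak) Schwann cells hold bundles of small axons and reach nerve endings close to the epithelium. *Ncmap* and *Drp2* encode proteins of the myelinating cell (*Ncmap* a membrane protein of non-compact myelin, *Drp2* a dystrophin-related protein under the outer surface of the sheath). *Kcna1* encodes a voltage-gated potassium channel, and *Scn7a* a sodium channel that is known from non-myelinating Schwann cells and from some other cells of connective tissue.

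The study asked how PITX1, a transcription factor of oral epithelium, changes mouse skin when its transgene is switched on by doxycycline in cells with the *Krt5* promoter (TRE-*Pitx1*/*Krt5*-rtTA mice, PITX1+), a promoter of basal epithelial cells and not of glia. Littermates on normal chow, of the same transgenic line, served as Control. The 4 slides held dorsal skin of male and of female mice, buccal mucosa (the lining of the cheek) of Control mice of both sexes, and male dorsal skin on day 4 after full-thickness wounding, in Control and PITX1+ mice. Cells were joined by position into 17 sections, and nothing in the labels says which sections came from separate mice, so p-values measure the spread between sections.

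The labels give the conditions of a slide and not of a section. Control and PITX1+ therefore refer to the place of a section on its slide, which gave 3 Control, 4 PITX1+ and 7 buccal sections, 1 Control wound and 2 PITX1+ wounds. On the male slide, *Pitx1* over the whole section was at 12.6 CPM (transcripts of the gene scaled to a fixed total of the transcripts assigned to cells of a section) in the Control section and at 722 and 436 CPM in the PITX1+ sections. On the female slide it did not separate them, at 74.7 and 54.1 CPM in the Control sections and 53.6 and 63.2 CPM in the sections assigned to PITX1+. Slide and sex are the same variable in unwounded skin, tissue and slide cannot be told apart for buccal mucosa, and wounding and slide cannot be told apart for the wounds. Members summed to between 1548 and 2898 transcripts in the Control sections, 3049 and 51777 in PITX1+ sections and 3144 and 53037 in buccal sections, so the Control sums were the least precise.

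The name of the cell type fitted the pooled members in part, which does not say how many single members it fits. Relative to other cells, members of the whole series carried *Abca8a*, a lipid transporter, at 15.5 times the CPM, the neural adhesion gene *Ncam1* at 5.59 times, the laminin receptor subunit *Itgb4* at 5.01 times and the neuregulin receptor *Erbb3*, which Schwann cells need, at 3.71 times. Of 6 fibroblast markers, 5 were also higher in the pooled members, with *Lum* at 4.14 times and *Col14a1* at 3.67 times. These ratios describe cells that the rule picked and carry no test. The summed CPM of *Erbb3*, *Ncam1* and *Sox2*, Schwann markers that the rule did not use, was higher in members than in other cells of the same section in 14 of 14 unwounded sections, with medians over sections of 13367 and 4201. The keratinocyte list of 9 genes was lower in members in 14 of 14 sections, with medians of 6698 and 129329, and the melanocyte marker *Mlana* was at a median of 0 in members. Fibroblast genes were higher in members in 11 of 14 sections, with medians of 54770 and 41892, and mural and muscle genes in 9 of 14. The 788 members with exactly 4 rule-gene transcripts carried mixed markers. Their *Erbb3* was 3603 CPM, *Ncam1* 4580 CPM and *Sox2* 695 CPM, against 2267, 761 and 965 CPM in other cells. Their *Pdgfra* was 9701 CPM and *Lum* 9611 CPM, against 3530 and 1826 CPM.

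The members were not of 1 kind. Transcripts of 3 or 4 rule genes were present in 1564 members (53.0%), and of a single rule gene in 419 (14.2%). The most frequent set was *Ncmap*, *Drp2* and *Kcna1* without *Scn7a*, in 947 members (32.1%), followed by *Kcna1* with *Scn7a* alone, in 457 (15.5%), and all 4 genes, in 316 (10.7%). The 281 members (9.53%) with *Scn7a* alone carried mixed markers. Their pooled *Erbb3* was 639 CPM and *Sox2* 113 CPM, against 2267 and 965 CPM in cells outside the rule, while *Abca8a* was 16435 against 1268 CPM and *Ncam1* 1690 against 761 CPM. They also carried fibroblast genes, with *Pdgfra* at 14858 CPM, *Lum* at 15139 CPM, *Col14a1* at 17468 CPM and *Pi16* at 9955 CPM. The 47 members with *Drp2* alone carried *Ncam1* at 32963 CPM, the growth factor *Igf2* at 37927 CPM and no *Sox2*. Of the mural and muscle genes they carried *Des* at 104647 CPM and *Acta2* at 15290 CPM, against 23500 and 1880 CPM in other cells. The rest of that list is not given for these members. The 32 members with *Ncmap* alone carried the desmosomal gene *Dsg2* at 9277 CPM and *Pitx1* at 2157 CPM. These single-gene members are called only by their genes, and the gene comparisons between conditions were also run without them. Epithelial markers at the level used to call a cell epithelial were present in 70 members (2.37%), and endothelial markers in 96 (3.25%). Doublets were not removed.

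**Figure D1:**
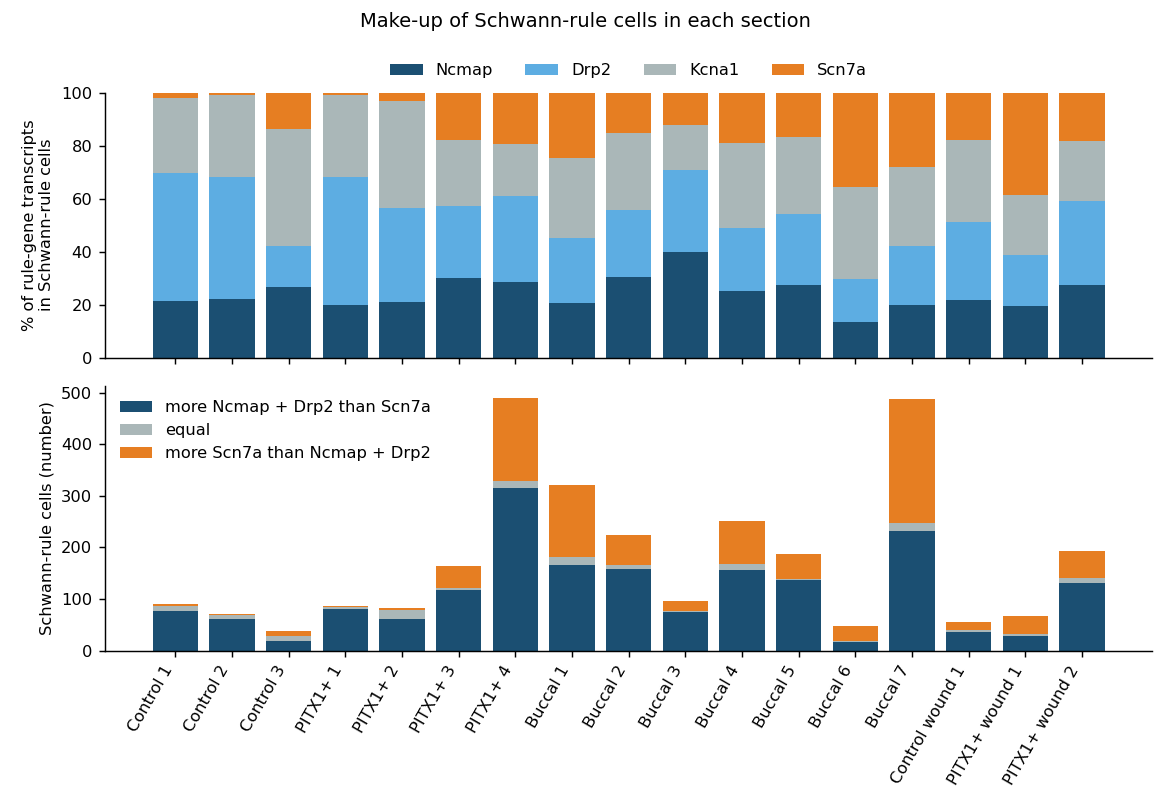
Make-up of the members of each section. The upper bars divide the rule-gene transcripts of members among the 4 genes in percent, and the lower bars count members with more *Ncmap* and *Drp2* than *Scn7a*, with equal counts and with more *Scn7a*. *Scn7a* was between 0.911% and 3.03% of these transcripts in the 4 female sections and between 12.2% and 38.5% in all others.

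The balance of the 4 genes differed between sections, and *Scn7a* was low on the female slide. It was 2.08%, 0.911%, 0.943% and 3.03% of the members' rule-gene transcripts in the 4 sections of the female slide, Control and PITX1+ alike. In the male sections it was 13.6% in Control skin and 17.8% and 19.4% in PITX1+ skin, and in buccal sections it lay between 12.2% and 35.8%. Over whole sections, which the threshold per cell does not touch, *Scn7a* was at 188 to 455 CPM on the female slide. In unwounded male skin it was at 694 to 1082 CPM. The male wounds lay within the female range, at 407 CPM in the Control wound and 374 and 312 CPM in the PITX1+ wounds. *Drp2* went the other way within Control skin, at 1650 and 1330 CPM in the female sections and 322 CPM in the male section. *Kcna1* over whole sections was instead lower in PITX1+ than in Control sections, without overlap. It was at 767, 814 and 556 CPM in Control sections and 271, 199, 163 and 413 CPM in PITX1+ sections. *Ncmap*, *Drp2* and *Scn7a* overlapped between these conditions, and the share of genes without overlap over all genes measured is not given. As a rule gene *Kcna1* was not tested. PITX1+ sections held more epithelial cells, and the part of this in the CPM of *Kcna1* was not tested. *Pitx1* did not separate the sections of the female slide, so no effect of PITX1 on *Kcna1* is read from these values. The plot of make-up by section shows the low *Scn7a* share of the female slide in its upper bars. With 1 slide for each sex, sex and slide cannot be told apart here.

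In unwounded skin the share of members differed between the slides in opposite directions. Members were 0.519%, 0.603% and 0.292% of the cells of the 3 Control sections and 0.152%, 0.109%, 0.429% and 1.75% of those of the 4 PITX1+ sections. Both female PITX1+ sections lay below every Control section, and 1 male PITX1+ section lay above all of them. The means were 0.471% ± 0.161 (SD, n = 3) and 0.609% ± 0.771 (SD, n = 4), and the difference of 0.138 percentage points was smaller than the spread (two-sided exact permutation test, p = 0.971). When cells with at least 20 transcripts were thinned to 20 and 2 rule-gene transcripts were asked for, the difference was -0.289 percentage points. This left out 3300 to 4381 of the 11778 to 17335 kept cells per Control section. In PITX1+ sections it left out 1707 to 12903 of 28005 to 75268. Of the epithelial cells, at most 0.0800% met the rule in any unwounded skin section (up to 0.276% in buccal mucosa). Epithelial cells of skin had median depths of 30 to 104 transcripts, and some held *Ncmap* or *Drp2*. Those that met the rule were 1 of 90, 0 of 71 and 0 of 37 members in Control sections. In PITX1+ sections they were 2 of 87, 7 of 82, 16 of 164 and 10 of 489 members. Keratinocyte genes summed to 646 to 30366 CPM in Control members and 4094 to 51168 CPM in PITX1+ members, and median depths of all kept cells were 26 to 32 transcripts in Control sections and 37 to 87 in PITX1+ sections.

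The summed level of the 4 rule genes over whole sections counts the transcripts assigned to any cell, member or not. It was 3658, 3058 and 2001 CPM in Control sections and 1545, 1191, 1725 and 2931 CPM in PITX1+ sections. The first 3 of those PITX1+ values lay below every Control value. The difference of -0.69 on the log2 scale did not pass (two-sided exact permutation test, p = 0.114, 0.180 after Benjamini-Hochberg adjustment over 11 tests), and 3 sections against 4 cannot give less than 0.0571. Most of these transcripts lay outside members, since members held 17.5%, 28.8% and 20.9% of them in Control sections and 9.99%, 6.95%, 24.4% and 58.2% in PITX1+ sections, so the level is of the tissue and not of the members alone. Of epithelial cells in skin, 0.179% to 4.98% held *Ncmap* and 0.389% to 5.08% held *Drp2*. Within the female slide the PITX1+ sections were the lower, and within the male slide the single Control section at 2001 CPM lay between both PITX1+ sections. PITX1+ sections held more epithelial cells, 12588 to 32534 against 3344 to 5633 in Control sections, and the part of this in the CPM was not tested.

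Buccal mucosa held a larger share of members than Control skin. The share ran from 0.803% through a median of 2.78% to 3.92% in the 7 buccal sections, so that all 7 lay above the 3 Control sections. The means were 2.61% ± 1.04 (SD, n = 7) and 0.471% ± 0.161 (SD, n = 3), a difference of 2.14 percentage points (two-sided exact permutation test, p = 0.0167, the smallest these numbers of sections can give, 0.0458 after adjustment over 11 tests). Buccal cells were also deeper, with medians of 41 to 125 transcripts. Thinning left out 260 to 1301 kept cells per buccal section. In cells thinned to 20 transcripts the difference was 1.65 percentage points and Buccal 6, at 0.862%, fell among the Control sections at 1.03%, 1.11% and 0.482%. Without *Scn7a* in the rule it was 1.48 percentage points, and neither alternative passed. The summed level of the 4 genes over whole sections differed by 0.05 on the log2 scale (p = 0.850, exact permutation test), with buccal values of 1367 to 11161 CPM around the Control values.

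**Figure D2:**
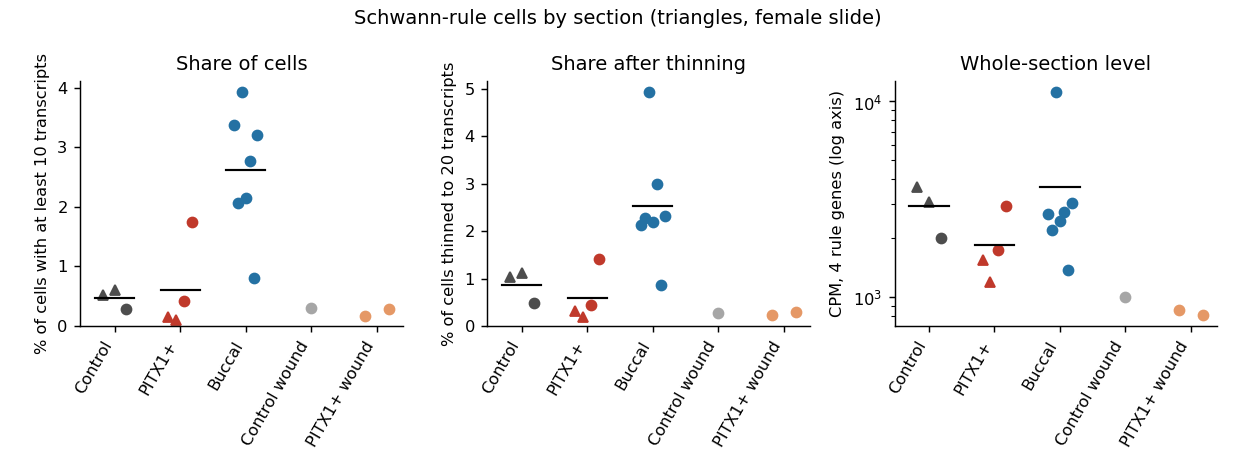
Members in each of the 17 sections as a percent of cells with at least 10 transcripts (left), as a percent of cells thinned to 20 transcripts (middle) and as the CPM of the 4 rule genes over the whole section on a log axis (right). Lines are means of unwounded groups, triangles are female sections, and the 7 buccal sections stand above Control in the left panel but not in the other panels.

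Members lay in groups. In the 14 unwounded sections the median distance from a member to the nearest other member was 24.3 ± 20.1 µm (SD), against 125 ± 70.8 µm from other cells to the nearest member, and it was the shorter in 14 of 14 sections. The mean difference was -101 µm (p = 0.000122 by an exact permutation of signs over sections, two-sided, and 0.00134 after adjustment, with no smaller p possible for 14 sections). By section, the median was 30.5, 24.7 and 90.4 µm in Control skin, 22.8, 31.8, 21.2 and 13.8 µm in PITX1+ skin and 12.2 to 23.7 µm in buccal mucosa. When members within 20 µm were chained, the share of members in chains of 5 or more was 0%, 16.9% and 0% in Control skin, 6.90%, 0%, 12.2% and 46.2% in PITX1+ skin, and from 12.5% through a median of 32.4% to 75% in buccal mucosa. PITX1+ 1 to 3 lay within the Control range and PITX1+ 4 above it. The largest chains held 51 members in PITX1+ 4 and 40 in Buccal 3.

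Within members, the 2 sides of the rule stood in different places. Members with more *Ncmap* and *Drp2* than *Scn7a* transcripts are called *Ncmap*/*Drp2*-leaning (1863 cells) and those with more *Scn7a* than *Ncmap* and *Drp2* are called *Scn7a*-leaning (946 cells), while 141 cells were tied and 377 lay within 1 transcript of the tie, so this is a division of a range and not of types. The rule summed all 4 genes and did not use this division, and position was not used either. The places of both kinds were compared after the maps of positions had been seen. The 9 unwounded sections with at least 10 cells of each kind were used, which were PITX1+ 3, PITX1+ 4 and all 7 buccal sections.

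**Figure D3:**
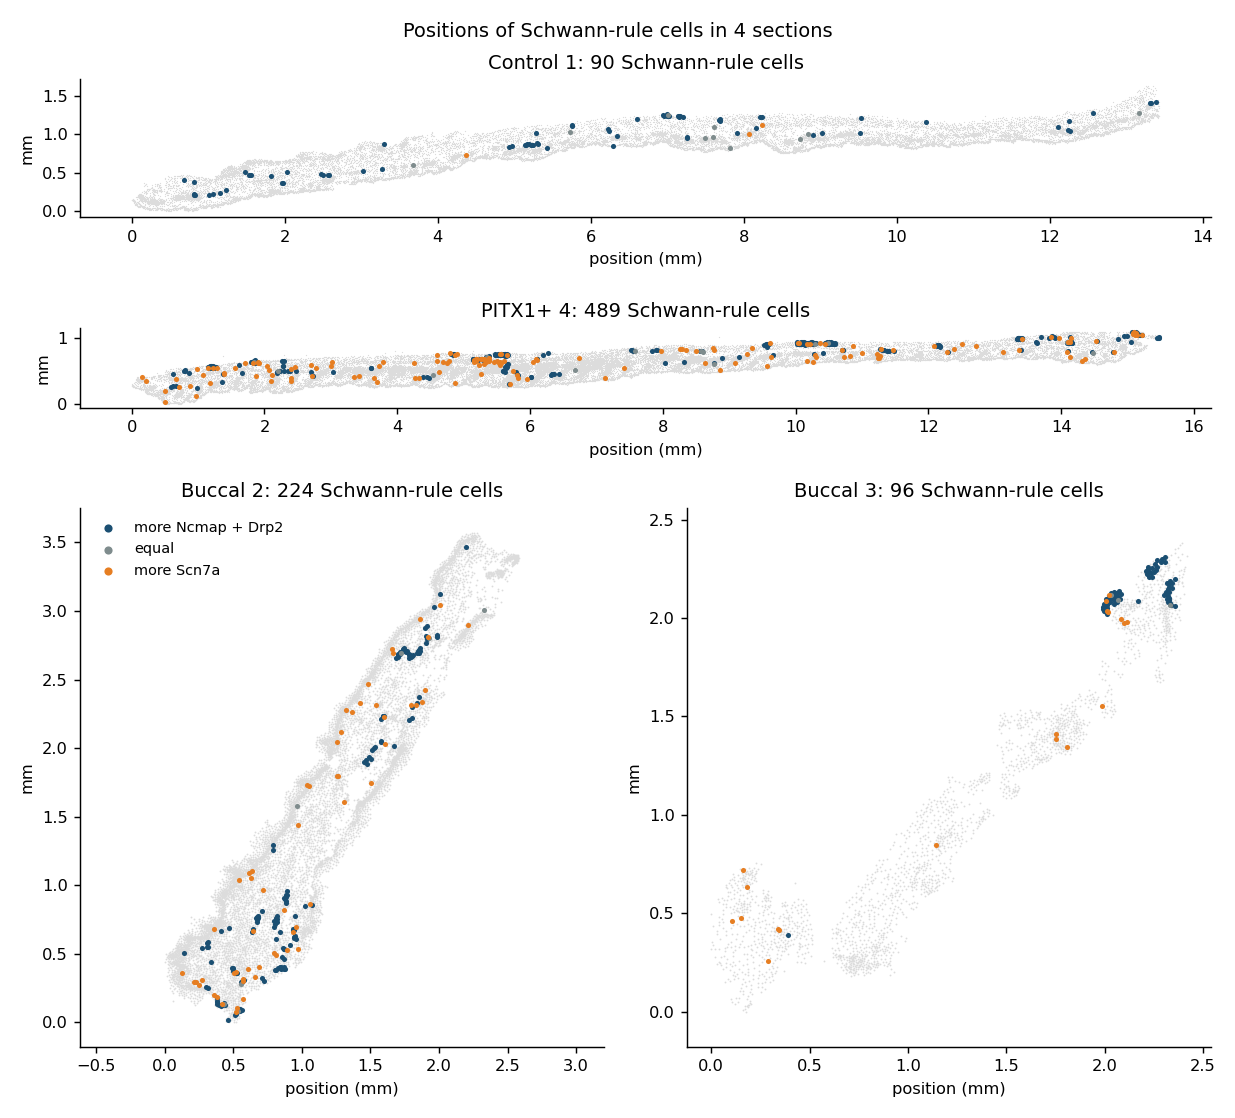
Positions of members in 4 sections, with skin sections turned so that the long axis runs across and both axes in mm. Grey points are other cells, dark blue members have more *Ncmap* and *Drp2*, orange members more *Scn7a* and grey-green members equal counts. The dark blue cells lie in tight strings and clumps, and most orange cells lie apart from one another.

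*Ncmap*/*Drp2*-leaning cells lay closer together and were more often in chains, though *Scn7a*-leaning cells were in chains too, up to 23.0% of them in PITX1+ 4. Their median distance to the nearest member of either kind ran from 10.6 µm through a median of 11.6 µm to 19.0 µm over the 9 sections, and that of *Scn7a*-leaning cells from 21.1 through 28.1 to 52.3 µm. Every section had the shorter distance in the *Ncmap*/*Drp2*-leaning cells, and the ranges did not overlap. The mean difference was -18.8 µm (p = 0.00391 by the same exact test and 0.00781 after Benjamini-Hochberg adjustment over 4 tests, with no smaller p possible for 9 sections). The share of cells in chains of 5 or more was 48.2% ± 19.4 (SD, n = 9) of *Ncmap*/*Drp2*-leaning cells and 13.6% ± 7.58 of *Scn7a*-leaning cells, higher in 9 of 9 sections (p = 0.00391, exact permutation of signs, 0.00781 adjusted).

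*Scn7a*-leaning cells lay closer to the epithelium. In the 8 of these sections with more than 2 epithelial cells, the median distance to the nearest epithelial cell was 93.5 ± 30.3 µm (SD, n = 8) for *Ncmap*/*Drp2*-leaning and 46.2 ± 15.8 µm for *Scn7a*-leaning cells. It was greater for *Ncmap*/*Drp2*-leaning cells in 8 of 8 sections (p = 0.00781, exact permutation of signs, the smallest for 8 sections, 0.0104 adjusted). Buccal 7 showed it least, at 72.7 and 70.7 µm. Distances to the nearest endothelial cell were 22.6 ± 4.55 and 20.2 ± 6.50 µm and did not differ beyond the spread (p = 0.258, exact permutation of signs). They were greater for *Ncmap*/*Drp2*-leaning cells in 7 of 9 sections, and without PITX1+ 3 the difference of 2.43 µm was 3.84 µm (p = 0.0156, exact permutation of signs). *Scn7a*-leaning cells were the deeper, with section medians of 60 to 122.5 transcripts against 30 to 84.5, and the part of depth in their places was not tested. Because *Scn7a*-leaning cells include the cells with *Scn7a* alone, both kinds were also compared with only those members that held *Kcna1*. The differences were then -11.9 µm to the nearest member, 24.5 percentage points in chains and 45.5 µm to the epithelium, each with the same direction in every section used.

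**Figure D4:**
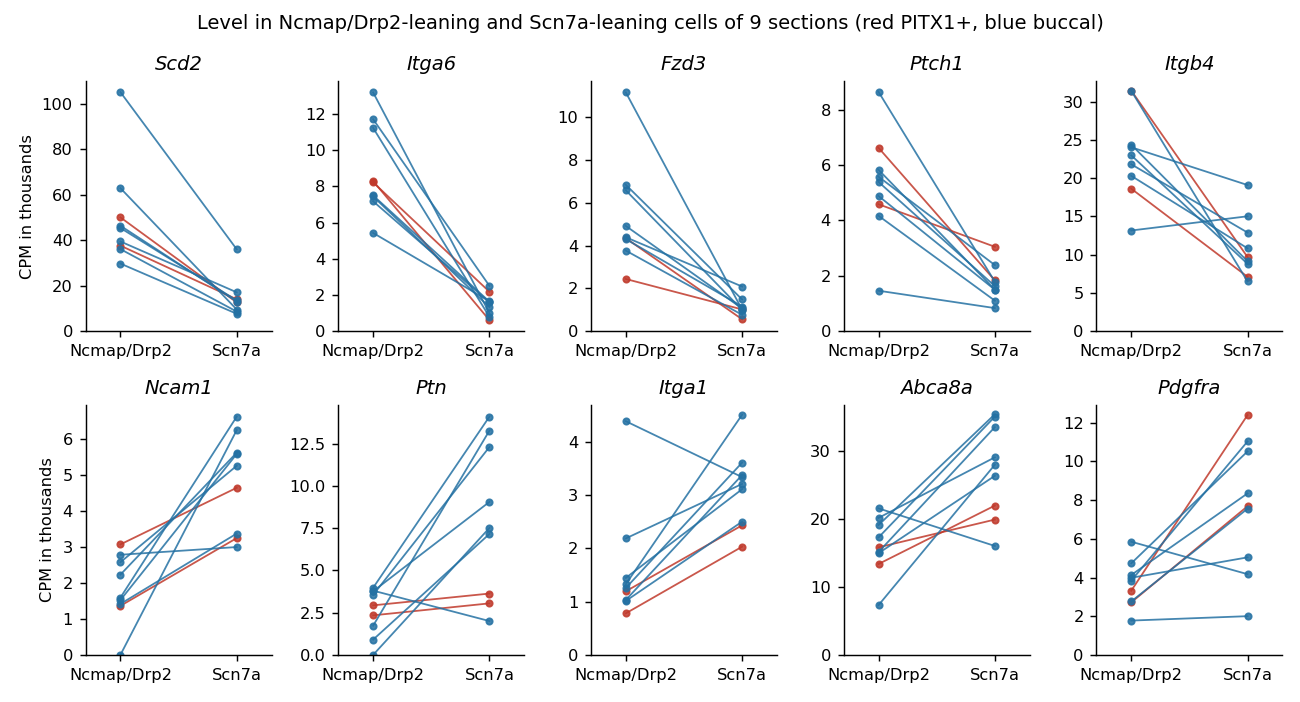
CPM (axis labels divided by 1000) of 10 genes in the *Ncmap*/*Drp2*-leaning (left) and *Scn7a*-leaning (right) members of 9 sections, each line 1 section, red for PITX1+ and blue for buccal. The genes of the upper row fell from left to right in every section except *Itgb4* in Buccal 6, and those of the lower row rose in most.

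The 2 kinds also differed in genes outside the rule. Counts were summed per section and kind and tested within sections with edgeR. Of 111 genes tested, 64 passed an adjusted p of 0.05 (57.7%), 26 higher in *Ncmap*/*Drp2*-leaning cells (23.4%) and 38 lower (34.2%). With so many tested genes passing, a passing gene is not unusual here, and sizes say more than counts. The median log2 change over all 111 genes was 0.02.

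*Scd2* and a pair of laminin receptor subunits had large differences to the *Ncmap*/*Drp2* side. *Scd2*, a fatty acid desaturase needed for membrane lipid, ran from 29761 through a median of 45439 to 105202 CPM in *Ncmap*/*Drp2*-leaning cells and from 7676 through 13041 to 36041 CPM in *Scn7a*-leaning cells. It was higher in 9 of 9 sections, by 1.85 on the log2 scale (SE 0.16, edgeR with Benjamini-Hochberg adjustment, adjusted p = 6.39e-08). *Itga6*, which pairs with *Itgb4* as a laminin receptor, ran from 5426 through 8217 to 13182 CPM and from 610 through 1590 to 2504 CPM. Its ranges did not overlap, and it was higher by 2.42 (SE 0.24). *Itgb4* was higher by 1.14 (SE 0.20) in 8 of 9 sections, with Buccal 6 the exception, and the laminin chain *Lama5* by 1.12 (SE 0.32). Of the list of 10 laminins and receptors, 8 were tested, with a median log2 change of 0.26. Of these 8, 3 were higher and 1, *Itga1*, lower, beside 23.4% higher and 34.2% lower over all genes tested. With both directions together, the share that passed was no larger than the 57.7% over all genes tested. Of 6 genes of lipid synthesis 2 were tested, and *Scd2* was the only one that passed.

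Receptors and ligands of other pathways went both ways, with the Wnt receptor *Fzd1* (-1.12), for example, on the *Scn7a* side. On the *Ncmap*/*Drp2* side, *Fzd3*, a Wnt receptor with roles in axon guidance, was higher by 2.27 (SE 0.24), the ephrin *Efnb1* by 1.72 (SE 0.30), the Hedgehog receptor *Ptch1* by 1.63 (SE 0.21) and the cytokine *Il34* by 1.29 (SE 0.24). Of 10 growth factor receptors, 8 were tested, and *Erbb2* (0.99, SE 0.24) and *Erbb3* (0.49, SE 0.19) were higher while *Egfr* and *Lrp1* were lower. The other genes named by size were *Igfbp6* (1.44), *Thbs1* (1.37) and *Adam10* (1.25), an insulin-like growth factor binding protein, a matrix glycoprotein and a membrane protease. *Spp1*, which encodes osteopontin, had the largest change at 5.03 (SE 0.48) and was higher in 8 of 9 sections, with no transcript in either kind in Buccal 6. It was singled out after its values had been seen.

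On the *Scn7a* side stood *Ncam1*, which non-myelinating Schwann cells are known to keep. It ran from 0 through a median of 1594 to 3077 CPM in *Ncmap*/*Drp2*-leaning cells and from 3003 through 5267 to 6634 CPM in *Scn7a*-leaning cells. It was the lower in *Ncmap*/*Drp2*-leaning cells in 9 of 9 sections, with a log2 change of -1.27 (SE 0.24, edgeR adjusted p = 0.000255). The secreted growth factor *Ptn* had a log2 change of -1.44 (SE 0.32) with 8 of 9 sections in that direction, the collagen and laminin receptor subunit *Itga1* of -1.15 (SE 0.23) and *Abca8a* of -0.72 (SE 0.18). Of 11 growth factors, 5 were tested, and *Ptn*, *Pdgfa* and *Igf1* were lower while *Il34* was higher in *Ncmap*/*Drp2*-leaning cells. Of 8 nerve sheath genes 5 were tested, and *Itgb4* and *Ptch1* were higher while *Gja1* (-0.94) and *Efemp1* (-0.74) were lower. Of the injury response list 4 genes were tested, and 0 passed edgeR, 0 at an unadjusted p of 0.05 and 0 in DESeq2. *Jun*, the best known regulator of the repair state, had a log2 change of -0.44 (SE 0.23). Among members that held *Kcna1*, however, *Jun* (-0.61, SE 0.19) and *Notch1* (-1.05, SE 0.28) of this list passed edgeR, both lower in *Ncmap*/*Drp2*-leaning cells.

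Of the list of 6 fibroblast markers, all 6 were tested, 5 were lower in *Ncmap*/*Drp2*-leaning cells (*Lum*, *Pdgfra*, *Col14a1*, *Pi16* and *Col6a1*) and none higher, with a median log2 change of -0.98. Among members with *Kcna1* only *Col6a1* of the list stayed lower. Other genes lower in *Ncmap*/*Drp2*-leaning cells were *Postn* (-1.44), the chemokine *Cxcl12* (-1.32), the matrix protease *Mmp2* (-0.99), *Igfbp7* (-0.88) and *Grn* (-0.45). In 8 sections, 1020 *Ncmap*/*Drp2*-leaning and 546 *Scn7a*-leaning members held *Kcna1*, and 103 genes were tested. *Ncam1* (-2.01), *Ptn* (-2.17), *Itga1* (-1.88), *Abca8a* (-1.17) and *Pdgfa* (-1.30) were then further apart, and *Scd2* (1.43), *Itga6* (1.48), *Fzd3* (1.59), *Ptch1* (0.92) and *Igfbp6* (1.33) kept their direction and passed edgeR. *Pdgfra* went from -1.17 to -0.11, *Pi16* from -1.78 to -0.23, *Cd34* from -0.96 to -0.01 and *Igf1* from -1.58 to -0.21, and none of these 4 passed edgeR any longer. The matrix proteoglycan *Lum* turned from -0.49 to 0.68, passing in both. *Postn* (-1.32), *Cxcl12* (-0.84) and *Igfbp7* (-0.94) still passed, and *Mmp2* (-0.40) did not. *Erbb3* turned to -0.26, *Egfr* to 0.49 and *Lrp1* to 0.34, while *Itgb4* at 0.21 did not pass. *Lama5* (0.57), *Erbb2* (0.49), *Il34* (0.61) and *Efemp1* (-0.06) did not pass either.

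Members of PITX1+ skin were compared with those of Control skin for the genes outside the rule, to see whether a transgene of the epithelium came with a change in glia. With slide as a covariate, edgeR tested 65 genes and called 0 (0.0%) at an adjusted p of 0.05, 3 at an unadjusted p of 0.05, and DESeq2 called 0 and 6. The 3 were *Postn*, *Lrp6* and *Mmp14*. *Lrp6*, a Wnt co-receptor, was the only gene of all 65 tested whose sections did not overlap between the conditions. Its 4 PITX1+ sections (4520 to 5830 CPM) lay below the Control sections (6846, 8733 and 8781 CPM). The log2 change was -0.67 (SE 0.25, edgeR adjusted p = 0.644), and no change in *Lrp6* is read from this separation. A difference between members and the cells within 30 µm of them in their response was also tested, and edgeR called 0 (0.0%) of 250 genes, 22 at an unadjusted p of 0.05, and DESeq2 called 1.

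The Schwann genes of that comparison are given as values, since none passed. *Erbb3* was at 3243, 2658 and 5854 CPM in Control members and at 3801, 3772, 7318 and 7710 CPM in PITX1+ members, so the male sections stood above the female ones in both conditions. *Ncam1* was at 4324, 4177 and 1756 against 2765, 2219, 1861 and 3598 CPM, and *Scd2* at 32067, 42526 and 31612 against 33521, 23521, 28590 and 30716 CPM. Their log2 changes were 0.36 (SE 0.25), -0.31 (SE 0.48) and -0.27 (SE 0.26). Of the list of 10 injury-response genes 4 could be tested, with a median log2 change of -0.36 against 0.13 over all 65 genes. *Tnc*, a matrix glycoprotein, was at 4684, 6075, 11058 and 12870 CPM in the female sections and 8781 CPM in the male Control section, but 248 and 425 CPM in the male PITX1+ sections. *Tnc* was thus low in 2 of the 4 PITX1+ sections and its groups overlapped.

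PITX1+ members lay closer to epithelium and vessels in every section than Control members, without reaching the threshold. Median distances to the nearest epithelial cell were 89.4, 270 and 141 µm in Control sections and 77.3, 56.2, 47.7 and 74.2 µm in PITX1+ sections. To the nearest endothelial cell they were 101, 76.4 and 79.9 µm and 58.9, 42.3, 27.7 and 25.5 µm. Both sets of ranges did not overlap, and each test gave p = 0.0571, the smallest possible (two-sided exact permutation test, 0.105 adjusted). Other cells of those sections were at 20.9 to 35.3 µm from epithelium in PITX1+ and 66.9 to 94.9 µm in Control skin, so they lay closer to it as well. To endothelium other cells were at 31.8 to 47.8 µm in PITX1+ and 84.2 to 163 µm in Control skin. Their part in the members' distance was not tested.

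Buccal members were compared with Control skin members over 144 genes, and edgeR called 25 (17.4%), 12 higher (8.33%) and 13 lower (9.03%). *Erbb3* was the Schwann gene among them. It was at 3939, 2952 and 6474 CPM in Control members and from 8069 through a median of 10116 to 11936 CPM in buccal members, higher by 1.22 (SE 0.32, edgeR adjusted p = 0.0232). Also higher were *Tsc22d1* by 2.52 (SE 0.40), *Arf6* by 2.16 (SE 0.41) and the growth factor binding protein *Igfbp4* by 1.47 (SE 0.40). All Control members together held 7, 6 and 18 transcripts of these genes. Other cells differed the same way for *Tsc22d1*, at 4590 to 13034 CPM in buccal and 812 to 4049 CPM in Control sections. The same was seen for *Arf6*, at 5704 to 21392 and 2820 to 4736 CPM. The growth factor *Igf2*, the BMP receptor *Bmpr1a*, the gap junction gene *Gja1* and *Retnla* were called as well, but on 2, 3, 3 and 1 transcripts in all Control members against 494, 590, 508 and 328 in buccal members, so the sizes of their changes are not well determined. The *Gja1* call held in 7 of 19 alternatives and that of *Retnla* in 14 of 19. That of *Erbb3* held in 15 of 20 and that of *Igfbp4* in 14 of 20. The list of growth factor receptors had 8 tested genes, with *Erbb3* the only one that passed. *Ncam1* (-0.23), *Abca8a* (0.48), *Scd2* (-0.29) and *Itgb4* (-0.03) did not pass.

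Genes lower in buccal members included 2 of the injury-response list. *Tnc*, a matrix glycoprotein made by nerve sheath and wounds, was at 5689, 6748 and 9711 CPM in Control members and between 0 and 1068 CPM in buccal members, a log2 change of -3.59 (SE 0.50, edgeR adjusted p = 0.000408). *Atf3*, a transcription factor of injured nerve, had a log2 change of -4.61 (SE 0.74), from 13 transcripts in Control and 12 in buccal members. Other cells of the same sections differed the same way, with 44.0 to 126 CPM of *Atf3* in buccal and 575 to 1477 CPM in Control sections. Of 10 injury-response genes 7 were tested, those 2 were lower and none was higher, beside 9.03% lower over all genes, with a median log2 change of -0.80 against 0.17 over all 144 genes. *Rxra*, a nuclear receptor, was at 21443 and 30367 CPM in the female Control sections but 3884 CPM in the male one, against 501 to 3205 CPM in buccal members, a log2 change of -2.93 (SE 0.47) that rests on the female slide for its size. In the PITX1+ comparison *Rxra* was at 18661 and 13314 CPM in the female and 4155 and 4183 CPM in the male PITX1+ sections. The log2 change was -3.07 (SE 0.52) for *Epha4*, an ephrin receptor of axon guidance, and -1.69 (SE 0.24) for *Col1a1*, the main fibrillar collagen. The integrin *Itgb3* (-1.69) and the membrane protease *Mmp14* (-1.16) were lower as well, and so was *Ptch1* (-1.95), whose sections overlapped. These calls held in 13 of 18 alternatives for *Itgb3*, 12 of 20 for *Mmp14* and 16 of 20 for *Ptch1*. For *Mmp14* other cells differed the same way, at 1185 to 4210 CPM in buccal and 7595 to 14180 CPM in Control sections. Matrix genes did not move one way, since *Timp3*, an inhibitor of matrix proteases, was higher by 1.36 (SE 0.32) and the collagen *Col14a1* was higher too (edgeR adjusted p = 0.0379, with overlapping sections), both added after their values had been seen.

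**Figure D5:**
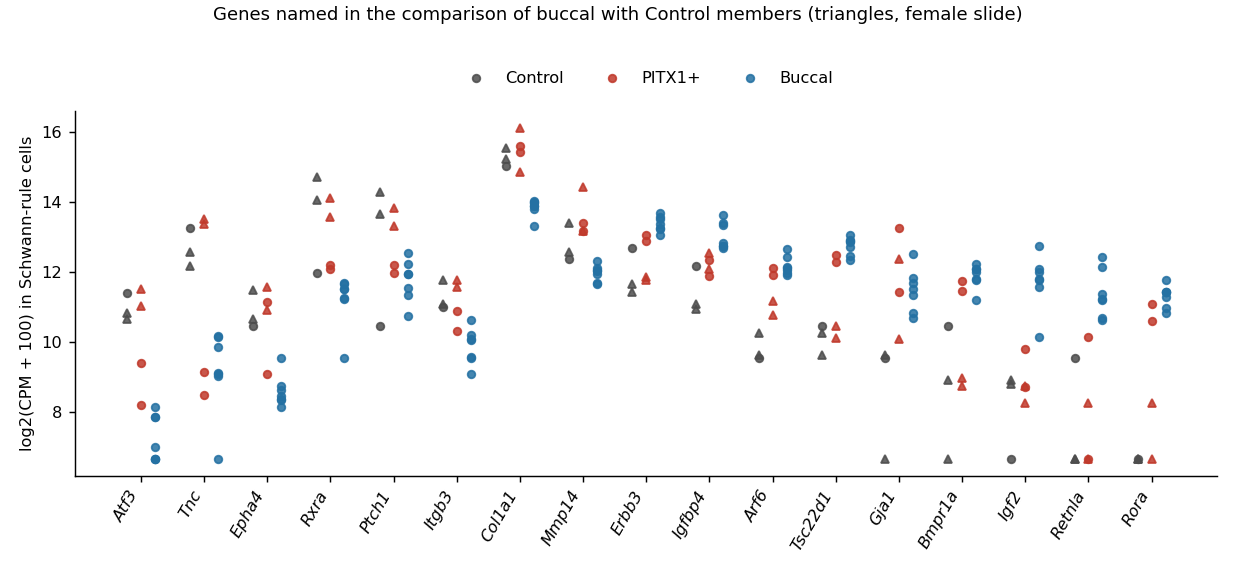
Level of genes picked by the naming rule in the comparison of buccal with Control members, as log2 of CPM plus 100, with 1 point a section and triangles for the female slide. Buccal sections (blue) stand apart from Control sections (grey) for each gene drawn except *Ptch1*, and the PITX1+ sections (red) are shown beside them.

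Some of these levels were also found in skin sections or in the surrounding cells. In raw CPM, *Tnc* was at 253 and 464 in the PITX1+ sections of the male slide, within the buccal range of 0 to 1049, as the plot of these genes shows, while the male Control section was at 9690. The epithelial keratin *Krt4*, one of the genes called, was at 294 to 5725 CPM in buccal and 0 to 376 CPM in Control members, beside 903 to 83387 CPM in other buccal cells, and the part of epithelial transcripts in members was not tested. *Rora*, a nuclear receptor, had 0 transcripts in all Control members and 377 in buccal members. This is at least 1.81-fold higher against a floor of 3 counts in the members of each Control section. Other cells of the same sections did not overlap in the same direction for 11 of the 25 genes called and for 31 of the 144 tested, *Col1a1* among them, with 2128 to 14676 CPM in other buccal cells and 29994 to 117902 CPM in other Control cells. The scaling also mattered. DESeq2 shifted the median over all genes by 0.77 on the log2 scale and called 51 higher and 5 lower (91.1% higher against 48.0%), and library size scaling shifted it by 0.24 and called 16 and 7 (69.6% higher). The count of calls moved with single Control sections, with 2 higher and 4 lower without Control 1, 5 and 7 without Control 2 and 28 and 28 without Control 3. Over 20 alternatives the log2 changes were 2.15 to 3.32 for *Tsc22d1*, 0.96 to 2.20 for *Erbb3* and -4.52 to -2.77 for *Tnc*. They moved more for *Igfbp4* (0.34 to 2.22). *Igf2* (1.59 to 8.31), *Retnla* (2.39 to 8.43) and *Gja1* (1.62 to 7.04) were tested in 19 alternatives and moved more too. *Tnc*, *Col1a1*, *Atf3*, *Rxra*, *Rora* and *Tsc22d1* were called without Control 1.

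Buccal members lay close to vessels. The median distance to the nearest endothelial cell was 19.9 ± 4.54 µm (SD, n = 7) in buccal mucosa and 85.9 ± 13.6 µm (SD, n = 3) in Control skin (two-sided exact permutation test, p = 0.0167, 0.0458 adjusted), with all 7 below all 3. Other cells were at 15.4 to 23.8 µm from endothelium in buccal mucosa and 84.2 to 163 µm in Control skin, so the short distance was not particular to members. Over the 14 unwounded sections members lay 33.8 µm further from epithelium than other cells that were neither epithelial nor endothelial, in 11 of 14 sections (exact permutation of signs, p = 0.00317, 0.0175 adjusted), and their distance to endothelium differed by -5.24 µm (p = 0.724, exact permutation of signs).

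In wounds, members were 0.306% of cells in the Control wound (95% exact binomial interval 0.232 to 0.398%) and 0.173% (0.134 to 0.220%) and 0.287% (0.248 to 0.330%) in the PITX1+ wounds, where the intervals cover counting error only. In PITX1+ wound 2, 50% of the 192 members lay in chains of 5 or more, and none of the 56 and 66 members of the other wounds did.

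Members of the 3 wounds were compared with those of the 3 sections of unwounded male skin, with condition as a covariate. Of 150 genes tested, edgeR called 3 (2.0%), all higher, and 0 lower (0.0%). *Mmp3*, a matrix protease, was at 9622, 9308 and 8423 CPM in the wounds and 2112, 1493 and 955 CPM in unwounded skin, a log2 change of 2.73 (SE 0.40, edgeR adjusted p = 0.00757). *Saa3*, an acute-phase protein, was at 1019, 12623 and 7830 CPM against 0, 67.9 and 337 CPM (log2 change 5.39, SE 0.68), and *Timp1*, an inhibitor of matrix proteases, at 1811, 3443 and 2313 CPM against 0, 204 and 150 CPM (4.09, SE 0.70). Other cells of the same sections did not overlap in the same direction for all 3 genes, and for 66 of the 150 genes tested. No gene was called by edgeR without PITX1+ 3, without the Control wound or in *Ncmap*/*Drp2*-leaning members. Over the alternatives in which each gene was tested, the log2 changes were 2.18 to 3.36 for *Mmp3*, 4.94 to 6.99 for *Saa3* and 3.02 to 4.55 for *Timp1*. The calls held in 11 of 16 such alternatives for *Mmp3*, 10 of 12 for *Saa3* and 6 of 13 for *Timp1*.

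Injured nerve is known to turn Schwann cells into a repair state that needs *Jun*. Of 7 tested genes of the injury response list, 0 passed edgeR in wound members, 1 at an unadjusted p of 0.05, and DESeq2 called 1. Both times this was *Tnc* (edgeR log2 change 2.81, SE 1.02), whose level in the unwounded Control section, 10559 CPM, lay above all 3 wounds. *Jun* was at 11659, 6630 and 6109 CPM in wounds and 21822, 6041 and 4364 CPM in unwounded skin (log2 change -0.08, SE 0.36). *Abca8a* was lower in all 3 wounds, at 3849, 7778 and 9609 CPM against 11967, 17309 and 17962 CPM, but did not pass edgeR (-1.19, SE 0.31, adjusted p = 0.155), and *Ncam1* was higher in all 3, at 18791, 4080 and 4211 against 2112, 2036 and 3802 CPM (1.12, SE 0.54, adjusted p = 0.463). With 1 Control wound the spread of wounds rests on few sections.

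The cells around members were also described. Cells within 30 µm of a member were compared with cells over 100 µm from every member, within each of the 14 unwounded sections, and edgeR called 186 of 311 genes (59.8%), 82 higher near members (26.4%) and 104 lower (33.4%). Of the 6 fibroblast markers 6 were higher near members, of 6 mural and muscle markers 4, of 6 endothelial markers 4 and of 7 macrophage markers 6, and none of these lists held a lower gene. *Igfbp6* was higher by 1.63 (SE 0.18), the smooth muscle myosin *Myh11* by 1.57 (SE 0.29) and *Pdgfra* by 0.68 (SE 0.12). Of 9 keratinocyte markers 8 were lower and none higher, with a median log2 change of -0.94, and 3 were lower with library size scaling. The largest changes down were -4.80 for *Hrnr* and -4.68 for *Lor*, genes of the cornified epidermis. Of 11 ephrin and guidance genes 6 were lower and none higher, led by *Efna3* (-1.45) and *Ephb3* (-1.31), though *Robo1* and *Epha4* of these 6 turned with library size scaling. Of 10 injury-response genes *Vim* was higher and *Junb*, *Jun* and *Cd44* were lower, *Cd44* turning with that scaling. *Abca8a* (1.06, SE 0.17), *Ncam1* (0.87, SE 0.20) and *Itgb4* (0.63, SE 0.15), all high in members, were higher in these neighbours too, while *Erbb3* was lower (-0.99, SE 0.22). Whether transcripts of members were assigned to neighbouring cells was not tested. Skin sections alone gave 20 higher and 59 lower, with 2 fibroblast markers higher and 6 keratinocyte markers lower, and library size scaling, which shifted the median over all genes by 0.65, gave 139 and 54.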

How the data were processed

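Xenium output was analysed for 4 slides. The authors deposited, for each slide, a table of decoded transcripts with a quality score, a position and the cell of each transcript, and a table of cells with counts of transcripts and control calls per cell, which were not normalized. Positions, areas and the mark for lying over the nucleus are other quantities in the deposited tables. The version and settings of the segmentation are not given in the sources used here. Deposited outlines of cells and nuclei were not used, since positions and counts sufficed.

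Per cell, transcripts of the 328 genes that reached a quality score of 20 were summed, and the sums equalled the deposited counts in 100% of cells. Control calls were 0.0375 to 0.0981% of calls. Sections were joined cells within 100 µm (200 µm on the slide with wounds) with at least 2000 cells. Slides shared 25 cell identifiers in all. Counts of members were summed per section and tested by the quasi-likelihood test of edgeR 4.0.16 (R version 4.3.3) after filterByExpr and TMM scaling, with Benjamini-Hochberg adjustment over all genes tested and a threshold of 0.05,, and with DESeq2 1.42.0 as an alternative. The 4 rule genes stayed in library sizes and were not tested. CPM beside an edgeR result is scaled by TMM, and all other CPM is of the raw total of transcripts assigned to cells. Shares and distances were compared over sections by exact permutation, with scipy 1.17.1, numpy 2.4.6 and pandas 2.3.3 under Python 3.11.15, and matplotlib 3.10.9 drew the figures. An epithelial cell held at least 5 transcripts of 9 keratinocyte genes, and an endothelial cell at least 4 of 6 endothelial genes.

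The members and lists were chosen with earlier results of these data known. Genes were named if they belonged to a list and passed, or if they were among the 8 passing genes per direction that changed most without overlap of the groups (in paired comparisons, with every section moving the same way). A gene that met this rule in the buccal comparison is not reported here, and for cells near members only examples are given. The alternatives were DESeq2, scaling by library size, all genes unfiltered, nuclear transcripts alone, transcripts of any quality, thresholds of 3 and 6 transcripts, at least 20 transcripts per cell, thinned cells, near distances of 20 and 50 µm, no covariate and leaving out each section. Added after seeing the data were members with at least 2 rule genes, *Ncmap*/*Drp2*-leaning or *Kcna1*-holding members only, the male slide only, skin sections only, the rule without *Scn7a* and the places of both kinds of member. Depth was 1548 to 53037 member transcripts per section.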

Additional observations from a re-analysis of the deposited data

Results flagged for a closer look

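Among 34 groups of 4 to 7 sections, 4 held a section whose gap to the others exceeded the critical value, and chance gives about 1 in 20 groups. Buccal 3 had a whole-section level of the 4 rule genes of 11161 CPM, far above the other buccal sections. It also had the greatest median distance from members to the nearest epithelial cell, 538 µm, and held 2 epithelial cells. Buccal 6 had the longest median distance to the nearest member in buccal mucosa, 23.7 µm, and the lowest *Rxra* level in buccal members, 501 CPM.

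The share of members moved in opposite directions on the 2 skin slides. PITX1+ minus Control was -0.431 percentage points on the female slide and 0.796 on the male slide, and the density of members differed by -6.15 per mm2 and by 38.9 per mm2. Without thinning, each PITX1+ section of a slide moved in that slide's direction. In thinned cells PITX1+ 3, at 0.434%, lay below the male Control section, at 0.482%. The difference between slides was not tested, and sex and slide cannot be told apart.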

How the results depend on the processing

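No paired analysis was possible because the labels of the 4 slides share a single replicate number, so samples cannot be paired between groups by it (comparisons within sections are of cells of the same section). The cause of the changes below was not tested unless named. The PITX1+ difference in share turned to -0.289 percentage points in thinned cells, and ran from -0.241 to 0.304 when each section was left out. The buccal difference in share no longer passed in thinned cells (1.65) or without *Scn7a* in the rule (1.48), and ran from 1.92 to 2.44 with a section left out, not passing without any one Control section (fewer sections, smallest p 0.0556). The same held for the buccal distance to endothelium (-70.7 to -58.2 µm). The buccal rule-gene level turned to -0.10 with transcripts of any quality and ran from -0.28 to 0.23, the buccal distance to epithelium from -86.7 to 30.2 µm, and the distance to endothelium of members against other cells from -6.50 to 1.03 µm. That of *Ncmap*/*Drp2*-leaning against *Scn7a*-leaning members ran from 1.11 to 3.84 µm and passed without PITX1+ 3. Their other differences in place, the spacing of members and their distance to epithelium kept direction and side of the threshold throughout. The distance to epithelium of members against other cells ran from 20.8 to 37.5 µm with a section left out.

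For genes in PITX1+ members, no filter gave 2 higher (*Gja1*, *Krt17*) and the male slide alone 1 lower, and leaving out sections gave 0. Buccal members gave, higher and lower, 51 and 5 with DESeq2, 26 and 37 without a filter, 6 and 4 over the nucleus, 7 lower with library size, 20 lower in members with 2 rule genes, and 2 to 28 and 4 to 28 with a section left out. Wound members gave 7 and 2 without a filter, 1 higher over the nucleus, 0 in *Ncmap*/*Drp2*-leaning members, 1 lower with DESeq2 and 1 lower at a threshold of 6, and 0 to 6 and 0 to 2 with a section left out. *Ncmap*/*Drp2*-leaning against *Scn7a*-leaning members gave 18 lower over the nucleus and 22 lower with *Kcna1* only, and 23 to 28 higher and 25 to 42 lower with a section left out; with *Kcna1* only, *Egfr* turned to 0.49, *Lrp1* to 0.34 and *Erbb3* to -0.26. Cells near members gave 139 and 54 with library size, which shifted the median by 0.65 on the log2 scale, 53 higher within 20 µm and 20 and 59 in skin sections only; with library size *Robo1* turned to 0.068, *Rxra* to 0.074, *Egfr* to 0.26, *Sdc4* to 0.29, *Epha4* to 0.31 and *Cd44* to 0.38. The difference in response between members and near cells gave 1 with DESeq2, 1 without a filter and 4 over the nucleus. In skin 65 genes had enough counts to be tested, which limits what could be called. A threshold of 3 transcripts tested 140 genes and any quality 126, and both called 0. No filter tested 323 and called 2, and the male slide alone tested 203 and called 1.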
